A study of Mus musculus with 6 samples.

Results

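Interferon-stimulated genes are the genes that a cell transcribes after it senses an interferon. The set described here holds 42 named mouse genes, taken by symbol from the 33696 genes of the deposited tables, and all 42 were found. By role they comprise 3 transcription factors (Stat2, Irf7, Irf1), 3 sensors of foreign nucleic acid (Ifih1, Dhx58, Zbp1), 3 genes of the ISG15 system (Isg15, Usp18, Herc6), 3 IFIT genes (Ifit1, Ifit2, Ifit3), 4 OAS genes (Oas1a, Oas2, Oas3, Oasl2), 14 other antiviral effectors, 7 interferon-inducible GTPases (Gbp2, Gbp3, Gbp7, Irgm1, Igtp, Ifi47, Iigp1), 2 chemokines (Cxcl9, Cxcl10) and 3 genes of antigen processing (Tap1, Psmb8, Psmb9). The other antiviral effectors were Rsad2, Cmpk2, Mx1, Bst2, Ifitm3, Isg20, Samd9l, Rtp4, Ifi44, Ifi35, Ifi27l2a, Xaf1, Parp9 and Parp14.

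The genes were measured by droplet single-cell RNA sequencing of the genioglossus, the tongue muscle that holds the upper airway open, in male mice. The labels name 3 control and 3 OSA libraries (OSA, obstructive sleep apnea), all from batch 1 and all taken at week 4 after modelling. They name no strain, allele, age or drug, do not say how the apnea model was made, and do not say whether each library is a separate animal, so p-values reflect the spread of these libraries only. Matrices were read for 4 of the 6 libraries, which are control replicate 2 and OSA replicates 1, 2 and 3. All comparisons therefore rest on 1 control library, which was assumed to vary as the OSA libraries do.

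The 4 matrices held between 70217449 and 82184913 unique molecular identifiers (UMIs, 1 per captured transcript), and 12229 to 15218 cells per library were kept. The libraries shared 41 to 67 barcodes per pair, under 0.5% of the smaller list, and no pair was alike within counting noise. The labels call the cells skeletal muscle cells, but no cluster was named from the myofibre markers. Cells fell into classes named from their markers with "-like", and 10 classes had at least 30 kept cells in every library: endothelial-like (2740 to 6085 cells per library), fibroblast-like (2390 to 3723), mural-like (1585 to 2113), Schwann-like (450 to 1254), macrophage-like (205 to 1108), tenocyte-like (236 to 524), satellite-like (272 to 322), lymphatic endothelial-like (100 to 295), T and NK-like (87 to 184) and neutrophil-like (42 to 491). The shares of these classes differed between libraries: macrophage-like cells were 1.54% of kept cells in the control library and 2.14%, 3.36% and 8.07% in OSA replicates 1, 2 and 3. Further cells with macrophage markers lay in unnamed clusters, outside every class. Among them, 1 cluster held 0 control cells and 28, 28 and 153 OSA cells, and another 0 against 33, 6 and 265. A shallow one held 25 control cells and 71, 46 and 60 OSA cells.

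Type I interferons act through IFNAR1 and IFNAR2, and interferon gamma acts through IFNGR1 and IFNGR2. Both routes use Janus kinases. Type I signalling acts on interferon-stimulated response elements (ISRE) in gene promoters, and interferon gamma acts on gamma-activated sites (GAS). IRF1 is itself induced by interferon gamma and by inflammatory signals, and it also binds ISRE-like sequences. In muscle, resident macrophages, endothelium and fibroblasts all carry these receptors. Many of the induced proteins block viral RNA or proteins, and others attract T cells or cut proteins for presentation to T cells.

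The promoters of the 3 genes below are shown because these genes passed the test of OSA against control in at least 1 class and were matched in the promoter table (RefSeq, build GRCm38.p6). Oas2, the fourth such gene, had no entry in that table. Each sequence is the 250 bases before the start of transcription, read 5′ to 3′ on the strand of the gene. Capitals mark matches to an ISRE core, searched as GAAA, 2 bases of any kind and GAAA on either strand, or to a GAS, searched as TTC, 3 bases of any kind and GAA.
Isg15, chr4:156200819-156201068, minus strand: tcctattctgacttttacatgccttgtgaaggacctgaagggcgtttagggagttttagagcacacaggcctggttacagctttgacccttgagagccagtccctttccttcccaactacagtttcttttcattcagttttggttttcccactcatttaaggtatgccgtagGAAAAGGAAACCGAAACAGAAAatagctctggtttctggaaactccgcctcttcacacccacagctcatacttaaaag
Cxcl10, chr5:92348890-92349139, minus strand: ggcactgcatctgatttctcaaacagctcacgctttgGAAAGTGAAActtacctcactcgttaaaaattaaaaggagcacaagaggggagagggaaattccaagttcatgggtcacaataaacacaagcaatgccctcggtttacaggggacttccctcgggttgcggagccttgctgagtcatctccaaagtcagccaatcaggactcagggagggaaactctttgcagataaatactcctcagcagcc
Irf1, chr11:53769764-53770013, plus strand: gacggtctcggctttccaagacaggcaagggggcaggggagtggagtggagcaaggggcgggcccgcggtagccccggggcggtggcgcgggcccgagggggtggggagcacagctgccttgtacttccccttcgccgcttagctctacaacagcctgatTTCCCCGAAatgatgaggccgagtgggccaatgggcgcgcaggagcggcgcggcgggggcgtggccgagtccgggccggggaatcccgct
The Isg15 promoter held 3 overlapping ISRE matches, starting 78, 72 and 66 bases before the start of transcription. The Cxcl10 promoter held 1 ISRE match, 213 bases before the start. The Irf1 promoter shown held no ISRE match and 1 GAS match, 90 bases before the start. RefSeq also gives a second Irf1 start, whose window held 0 ISRE and 0 GAS matches.

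Of the 42 genes, 32 had a promoter in the table. A gene with several starts was counted when any of its windows held a match. An ISRE match lay in 14 of these 32 (43.8%), against 936 of the 27025 genes in the table (3.46%). A GAS match lay in 8 of these 32 (25%), against 2197 of the 27025 genes in the table (8.13%). The GTPases held ISRE matches in 5 of 6 promoters, the IFIT genes in 2 of 3, and the antigen processing genes in 0 of 3. A match describes these letters only, and 0 matches in this window say nothing of sites elsewhere.

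The level of each gene across classes is given in CPM, counts scaled to a fixed total, here the UMIs of the gene over all UMIs of that class in a library, without further scaling and as mean ± SD over the 4 libraries. Only 1 gene at a time was compared across classes, because the level of different genes was not set per length. Levels were ranked among the 10 tested classes. Endothelial-like cells, which line the blood vessels, held the highest mean for 23 of the 42 genes, neutrophil-like cells for 10, T and NK-like cells for 3 and macrophage-like cells for 2. Schwann-like, lymphatic endothelial-like, mural-like and satellite-like cells each held it for 1. With the small untested classes included, endothelial-like cells led for 17 genes, monocyte-like and neutrophil-like cells for 8 each and dendritic-like cells for 5, among them Cxcl9, Cxcl10 and Psmb8. In 16 of the 42 genes the lowest library of the leading class lay above the highest library of the next class. For the remaining genes the first 2 classes overlapped.

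Iigp1, a GTPase that attacks the vacuoles of intracellular parasites, stood highest of the tested classes in endothelial-like cells, at 449, 519, 369 and 377 CPM in the control library and OSA replicates 1, 2 and 3 (428 ± 70.3, SD, n = 4). The next class was mural-like at 164 ± 30.4 CPM, and macrophage-like cells were lowest at 11.3 CPM. Within the mural-like class the level went with transcripts of another type: the mural-like cluster whose endothelial marker list summed to 6769 CPM in the control library held Iigp1 at 322 CPM, and another mural-like cluster whose list summed to 1313 CPM held it at 17.8 CPM. In mural-like cells with 0 endothelial UMIs (185 control cells, and 130, 92 and 175 OSA cells) Iigp1 was counted at 22.5 CPM in the control library and at 6.63, 19.2 and 22.8 CPM in OSA, from 2 to 11 UMIs per library, far below the class as a whole.

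Bst2, which tethers virus particles to the cell surface, was also highest among the tested classes in endothelial-like cells (369 ± 28.7 CPM, SD, n = 4) and lay above mural-like cells (200 ± 38.9 CPM) in every library. Irf1 was counted at 953, 828, 657 and 735 CPM in endothelial-like cells, 793 ± 127 CPM on average, and at 594 ± 103 CPM in mural-like cells. The ranges of these classes overlapped for Irf1, although endothelial-like cells were the higher class inside each of the 4 libraries. Neutrophil-like cells held least Irf1, 145 CPM on average.

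Ifitm3, a membrane protein that stops viruses from leaving the endosome, was highest among the tested classes in lymphatic endothelial-like cells at 4026 ± 749 CPM (SD, n = 4). Endothelial-like cells followed at 2835 ± 494 CPM, and T and NK-like cells were lowest at 553 CPM. Psmb8, a subunit of the immunoproteasome, was highest among the tested classes in T and NK-like cells at 286 ± 27.0 CPM, above endothelial-like cells at 209 ± 17.3 CPM in every library. Ifi27l2a was highest among them in macrophage-like cells at 1016 ± 471 CPM, a mean whose spread overlapped the lymphatic endothelial-like level of 786 ± 226 CPM.

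The OAS enzymes, which make the short RNA-like signal that switches on RNase L, were highest of the tested classes in neutrophil-like cells. Oas3 was counted there at 108, 34.7, 54.0 and 36.9 CPM, 58.4 ± 34.1 CPM on average, and the next class, macrophage-like, averaged 5.24 ± 4.31 CPM. Oasl2 averaged 106 ± 34.0 CPM in neutrophil-like cells and 38.0 ± 6.71 CPM in endothelial-like cells, with no overlap. Isg20, an exonuclease that degrades viral RNA, averaged 112 ± 59.4 CPM in neutrophil-like cells against 22.5 ± 4.03 CPM in fibroblast-like cells. Isg15, a ubiquitin-like modifier, was less even: 499, 243, 96.1 and 242 CPM in neutrophil-like cells, a range that enclosed the endothelial-like mean of 199 ± 20.6 CPM. The control value in neutrophil-like cells comes from 42 cells.

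Cxcl10, a chemokine that attracts T cells through the receptor CXCR3, had another order. Among the tested classes its mean was highest in satellite-like cells, the muscle stem cells, at 139, 125, 258 and 106 CPM (157 ± 69.0 CPM, SD, n = 4). Fibroblast-like cells followed at 96.7 ± 54.3 CPM, and lymphatic endothelial-like cells were lowest at 3.50 CPM. These first 2 classes overlapped. Cxcl9, the related chemokine, was highest of the tested classes in endothelial-like cells at 61.5 ± 11.9 CPM.

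**Figure D1:**
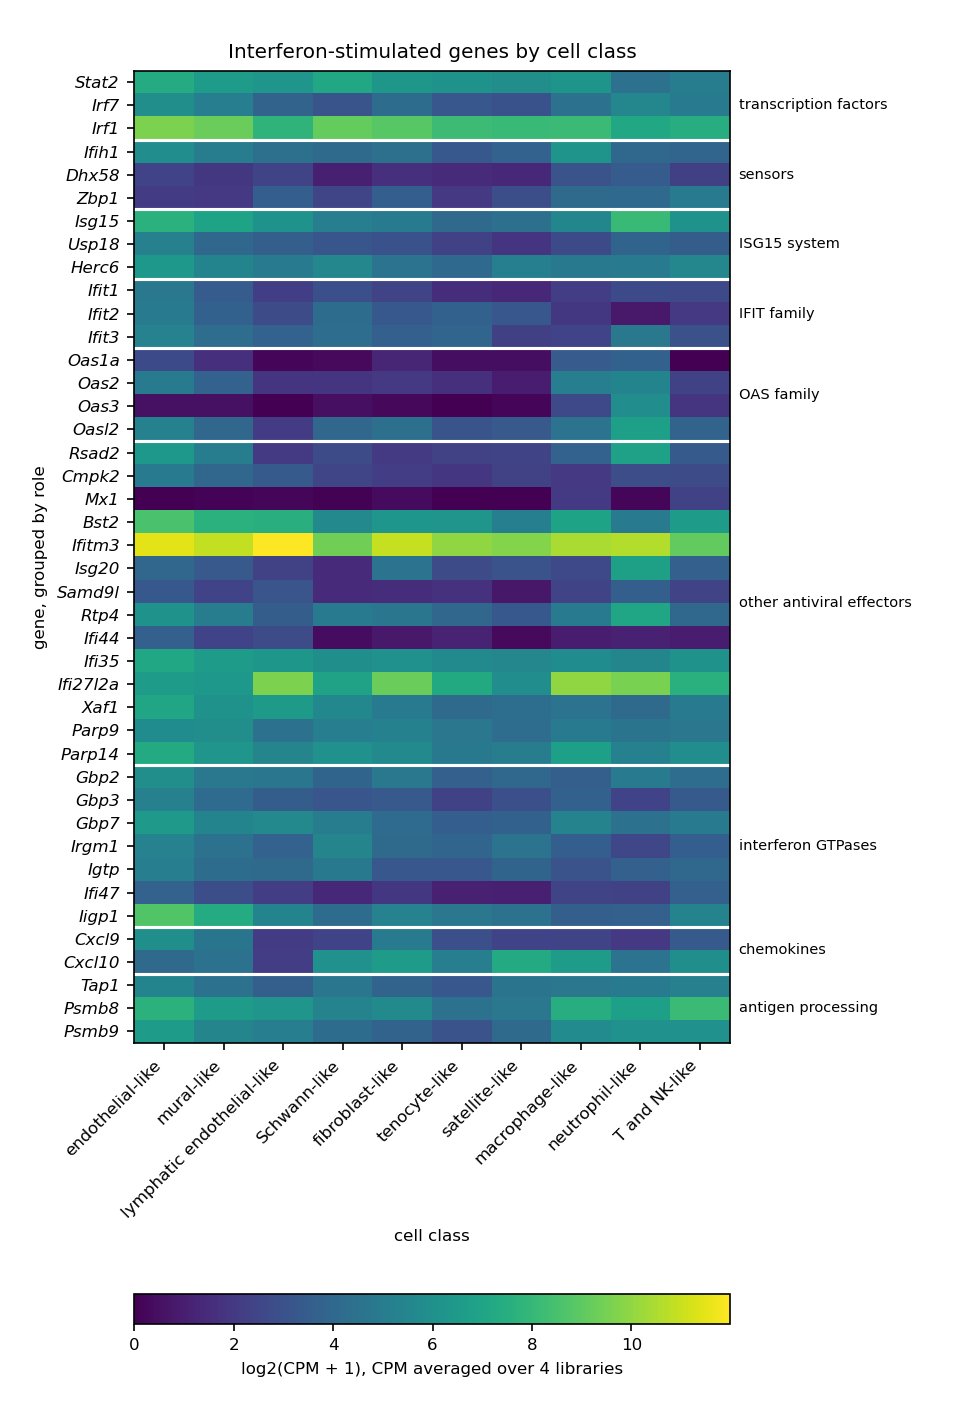
Level of each of the 42 genes (rows, grouped by role) in each of the 10 tested classes (columns), as the mean over 4 libraries of CPM in the class, on a colour scale of log2(CPM + 1). Of these classes endothelial-like cells hold the highest mean for 23 genes and neutrophil-like cells for 10, among them all 4 OAS genes.

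To compare OSA with control, counts were summed per library and class and tested with edgeR's quasi-likelihood test over all genes of a class, with p-values adjusted by the method of Benjamini and Hochberg at 0.05. Shares of all genes that passed are given at this adjusted threshold throughout. Where genes of the set are counted at an unadjusted p under 0.05, the share of all genes at that threshold is not given. CPM values beside these tests are scaled by edgeR's TMM factors. A class sum cannot tell fewer transcripts per cell from a change in which cells make up the class. Single named clusters with at least 30 kept cells in every library were tested in the same way. Results are given for only some of them, and p-values were not adjusted for the number of clusters.

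In macrophage-like cells the interferon-stimulated genes were mostly lower in OSA, and 3 of them fell: Irf1, Isg15 and Oas2. Of the 41 genes tested in this class (Ifi44 was too low), 34 were lower and 7 higher in OSA, with a median log2 difference of -0.96. Over all 12074 genes tested in the class, 46.5% were lower and the median was 0.05. Here 0.439% of all genes passed the test, and 0.34% of them fell. An unadjusted p under 0.05 was reached by 17 of the 41, and the share of all genes at that threshold is not given.

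Irf1 was counted at 562 CPM in the control library and at 218, 206 and 150 CPM in OSA replicates 1, 2 and 3. Every OSA library was below the control, and the log2 difference was -1.56 ± 0.28 (SE; adjusted p = 0.0434, edgeR). Isg15 stood at 92.7 CPM in the control library and at 30.5, 30.9 and 22.4 CPM in the OSA libraries, a log2 difference of -1.74 ± 0.30 (adjusted p = 0.0407, edgeR). Oas2, an enzyme upstream of RNase L, stood at 73.2 CPM against 24.0, 15.8 and 23.4 CPM, a log2 difference of -1.79 ± 0.32 (adjusted p = 0.0417, edgeR). For all 3 genes the OSA libraries lay close together and the control lay apart from them.

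By role, the GTPases had the lowest median log2 difference, -1.74, with 7 of 7 lower. Gbp7, a guanylate-binding protein that acts on membranes around microbes, was counted at 84.0 CPM in the control library and at 33.1, 25.3 and 18.2 CPM in OSA (-1.74 ± 0.34, adjusted p = 0.059, edgeR). Irgm1, a regulator of autophagy, had 23.5 CPM against 6.86, 6.90 and 6.07 CPM (-1.84 ± 0.41, adjusted p = 0.0768). For both genes the groups did not overlap, and neither passed the test. The share of all genes without overlap is not given. Ifi47 had 10.8 CPM against 2.67, 1.97 and 2.18 CPM (-2.24 ± 0.63, adjusted p = 0.159).

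Among the other transcription factors, Stat2, the subunit specific to type I signalling, had 135 CPM in the control library and 60.2, 50.9 and 44.4 CPM in OSA (-1.39 ± 0.28, adjusted p = 0.059, edgeR). Irf7, the amplifier of type I interferon, went the other way, from 18.8 CPM to 10.7, 20.05 and 36.7 CPM, and its groups overlapped. All 3 sensors were lower (median -0.74). Ifih1, which encodes the double-stranded RNA sensor MDA5, had 161 CPM against 63.2, 42.1 and 17.8 CPM (adjusted p = 0.293, edgeR).

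The ISG15 system was lower in 2 of 3 genes, the IFIT family in 2 of 3, and the OAS family in 3 of 4. Oas3 was the exception in its family, with 2.02 CPM in the control library, from 3 UMIs, against 3.43, 3.61 and 12.9 CPM. That is a 4.03-fold ratio with a counting interval of 1.34 to 19.9. Ifit3 had 2.69 CPM against 6.86, 4.60 and 3.11 CPM, also low in the control. These are among the least abundant genes of the set in this class.

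The other antiviral effectors were lower in 11 of the 13 tested (median -0.69). Rsad2, whose protein viperin makes a chain terminator of viral RNA synthesis, had 26.9 CPM against 8.76, 7.89 and 7.63 CPM (-1.74 ± 0.38, adjusted p = 0.0765, edgeR). Rtp4 had 55.8 CPM against 24.4, 19.1 and 14.5 CPM (-1.55 ± 0.35, adjusted p = 0.0817). The 2 most abundant genes of the set in this class differed less. Ifitm3 had 1875 CPM against 1086, 1310 and 1449 CPM (-0.55 ± 0.28, adjusted p = 0.428), and Ifi27l2a had 1518 CPM against 601, 1224 and 692 CPM (-0.86 ± 0.38, adjusted p = 0.369).

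Bst2 and Xaf1 were nearly level in macrophage-like cells. Bst2 had 118 CPM against 104, 117 and 150 CPM, and Xaf1 22.8 CPM against 22.9, 23.3 and 22.3 CPM. Psmb8 was likewise inside the OSA range, at 182 CPM against 155, 185 and 172 CPM. The 3 antigen processing genes had a median log2 difference of -0.14, the smallest of any role with all its genes on the lower side.

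**Figure D2:**
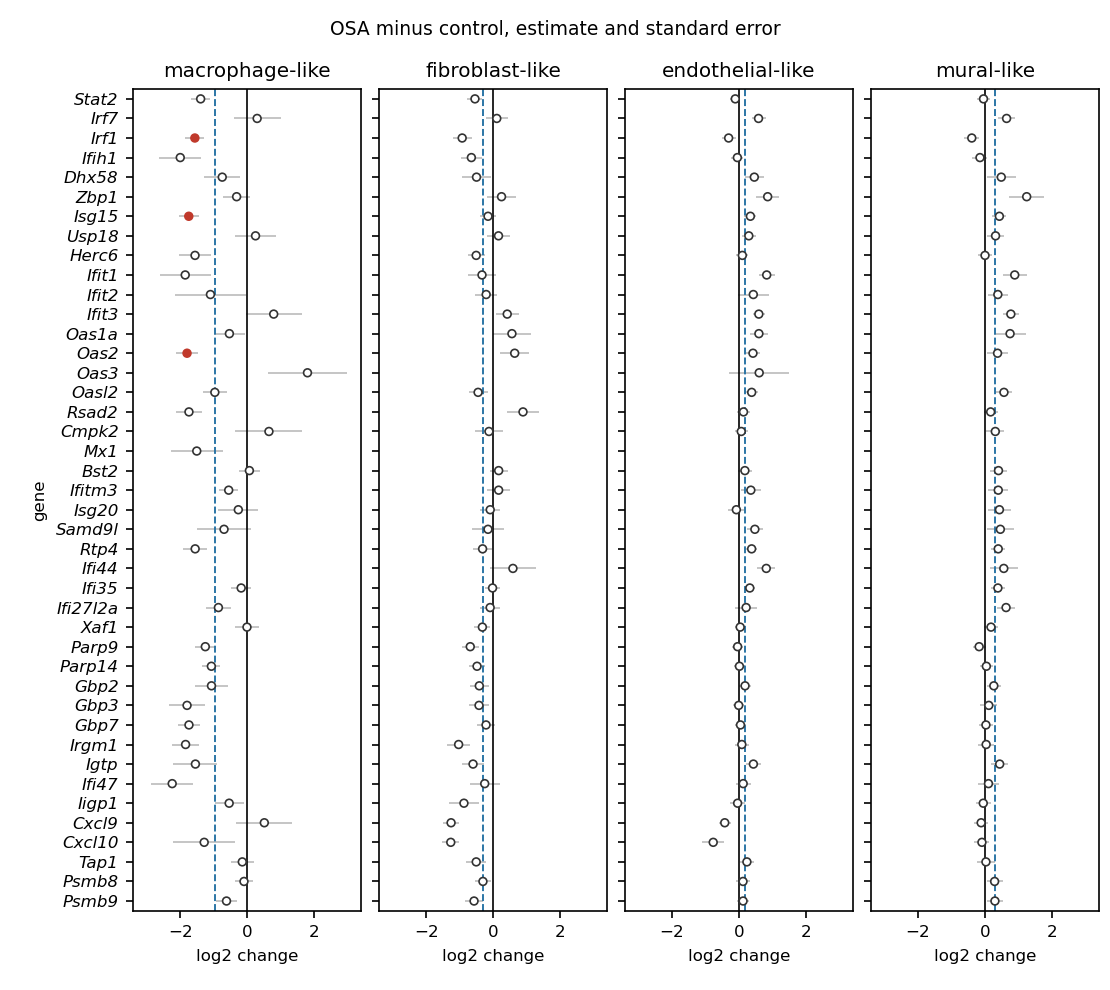
Log2 difference of OSA minus control for each interferon-stimulated gene tested in the class (rows) with its SE, in macrophage-like, fibroblast-like, endothelial-like and mural-like cells. Filled red points passed the test, the blue dashed line is the median over the set, and Mx1 in fibroblast-like cells is left out because the control held 0 counts; macrophage-like points lie mostly left of 0 and endothelial-like and mural-like points mostly right of it.

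Other genes of the interferon pathway were read in the same cells from separate lists. Of 8 signal transducers, 6 were lower and 0 passed the test (median -0.61). Stat3, the most abundant of them, had 1056 CPM against 524, 444 and 445 CPM (-1.17 ± 0.26, adjusted p = 0.0816, edgeR). All 5 receptor genes tested were on the higher side (median 0.28), with Ifnar2 at 114 CPM against 152, 103 and 149 CPM, and 0 of 5 passed.

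The interferon genes themselves were barely counted. The 10 ligands together summed to 4.73 CPM in the control library and to 1.55, 0 and 0.979 CPM in OSA, with 7 of 10 at 0 in all 4 libraries, and none could be tested. Of 12 upstream sensing genes 8 were lower (median -0.15), and of 8 feedback inhibitors 6 were lower (median -0.28), with none passing. The most abundant were Trim25 (163 CPM against 167, 161 and 219.5 CPM) and Socs3 (507 CPM against 394, 343 and 251 CPM).

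In the MHC class I list, 10 of 13 genes were lower and 1 fell. That gene was Nlrc5, the transactivator of MHC class I genes, with 126 CPM in the control library and 49.9, 41.1 and 34.1 CPM in OSA (-1.60 ± 0.29, adjusted p = 0.0427, edgeR). B2m, the light chain of MHC class I, had 1771 CPM against 1545, 1038 and 1642 CPM (-0.33 ± 0.32, adjusted p = 0.678). The median of the list was -0.19.

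Several other measures moved with these genes. The list of immediate early and dissociation genes, which cells also switch on during tissue digestion, was lower in 14 of 15 genes (median -0.76, 0 passing) and summed to 19829 CPM in the control library against 12904, 12317 and 8685 CPM. Fos, its most abundant gene, had 3274 CPM against 2722, 1926 and 1549 CPM. The 10 endothelial markers summed to 479 CPM in the control macrophage-like cells and to 562, 486 and 328 CPM in OSA. The 7 lymphatic endothelial markers summed to 1145 CPM against 566, 727 and 414 CPM, and the 11 fibroblast markers to 383 CPM against 552, 746 and 864 CPM. No gene of either list was at 0 in all libraries. The lymphatic endothelial list includes Lyve1, which was also a leading gene of the Folr2-led macrophage-like cluster described below. Its sum is therefore not specific to lymphatic endothelial RNA in this class. The part of these lists in the lower interferon-stimulated genes was not tested. Among macrophage-like cells with 0 endothelial UMIs (30 control cells, and 45, 59 and 394 OSA cells), Irf1 was still lower, at 746 CPM against 217, 202 and 204 CPM (-1.85 ± 0.44, adjusted p = 0.0025, edgeR, where 3.24% of all genes passed). In those cells 10 of the 15 genes tested were lower, Oas2 had 82.9 CPM against 56.6, 40.4 and 38.5 CPM without passing, and Isg15 was too low to test. Others changed side: Cxcl10 had 41.4 CPM against 37.7, 141 and 23.8 CPM (0.52 ± 0.95). Ifi35 (1.77 ± 0.85), Ifi27l2a (0.04 ± 0.51) and Psmb8 (0.07 ± 0.49) also had positive differences there, and none of these 4 passed.

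The makeup of the class also differed. In the control library 143 of 205 macrophage-like cells belonged to a cluster led by Folr2, Cd209f and Lyve1, against 82 of 326, 98 of 411 and 130 of 1108 in OSA. A cluster led by Apoe and Ms4a7 held 0 control cells and 56, 6 and 283 OSA cells, and a cluster led by Mmp12, Gpnmb and Spp1 held 1 control cell and 28, 5 and 136 OSA cells. Irf1 was low in the Apoe-led cluster, at 55.3, 58.2 and 65.0 CPM (unscaled) in OSA. It was also low in the Mmp12-led cluster, at 41.5, 42.4 and 53.1 CPM (unscaled) in OSA. Within the Folr2-led cluster alone, 20 of 27 genes were lower (median -0.32) and 0 passed, where 0.383% of all genes did. In that cluster Irf1 had 706 CPM against 500, 315 and 477 CPM (-0.72 ± 0.26, adjusted p = 0.387, edgeR), Isg15 had 65.1 CPM against 73.5, 38.1 and 33.1 CPM, and Oas2 had 108 CPM against 81.9, 39.8 and 110 CPM. In the Folr2-led cluster the control thus lay above every OSA library for Irf1 and inside the OSA range for Isg15 and Oas2. In a cluster led by Ccl12 and Mrc1, with 25 control cells and not tested, the control was highest for all 3 genes (unscaled). There Irf1 had 699 CPM against 283, 366 and 302 CPM, and Isg15 had 83.7 CPM against 40.1, 55.2 and 46.3 CPM. Oas2 had 83.7 CPM against 21.1, 18.4 and 53.1 CPM. The part of the cluster makeup in the lower class sums was not tested.

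Single cells and single libraries also bore on the calls. Of 138 Isg15 UMIs in control macrophage-like cells, 28 came from 1 cell. Without the cell of most UMIs in each library Isg15 no longer passed (-1.53, adjusted p = 0.0559, edgeR), whereas Irf1 (-1.58, adjusted p = 0.0448) and Oas2 (-1.82, adjusted p = 0.0425) did. Without OSA replicate 1 the count of passing genes was 0, without OSA replicate 2 it was 14 and without OSA replicate 3 it was 13. The share of all genes that passed moved as well, to 0%, 6.69% and 4.56% in the same order. DESeq2 called 5 of the set, where it called 1.54% of all genes.

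**Figure D3:**
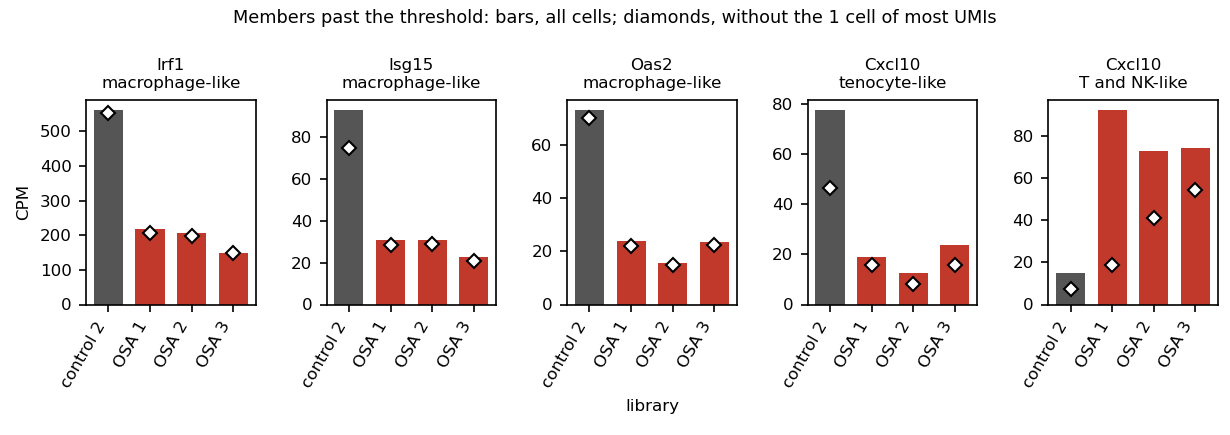
CPM in each library (bars, TMM-scaled) of the genes that passed the test in a class, which are Irf1, Isg15 and Oas2 in macrophage-like cells, Cxcl10 in tenocyte-like cells and Cxcl10 in T and NK-like cells; diamonds give the value without the cell that holds most UMIs of that gene in the library. The 4 genes that fell have 1 tall control bar over 3 shorter OSA bars, and Cxcl10 in T and NK-like cells has the reverse pattern, with its OSA replicate 1 diamond far below the bar.

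Endothelial-like cells were set against macrophage-like cells because they held the highest mean of 23 of the 42 genes among the tested classes. Here 32 of 41 genes were higher and 9 lower in OSA, with a median log2 difference of 0.18, against 51.6% higher and a median of 0.01 over all genes. None passed the test by edgeR or by DESeq2, and 8 had an unadjusted p under 0.05. At the adjusted threshold 0% of 16334 genes passed, and the share of all genes at the unadjusted threshold is not given. Immediate early genes were balanced in these cells, with 7 of 15 higher.

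Ifit1, which binds viral RNA that lacks the host cap, had 17.1 CPM in the control library and 35.6, 30.9 and 23.7 CPM in OSA (0.83 ± 0.24, adjusted p = 0.908, edgeR). Ifit3, its partner, had 28.0 CPM against 44.7, 42.2 and 39.7 CPM (0.59 ± 0.17, adjusted p = 0.904). Ifi44 had 7.61 CPM against 15.8, 13.4 and 10.6 CPM, and Irf7 had 43.0 CPM against 55.3, 61.4 and 76.9 CPM. Every OSA library exceeded the control for these 4 genes, and without OSA replicate 3 Ifit1 passed, where 0.258% of all genes did.

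Isg15 followed them, at 167 CPM against 190, 216 and 228 CPM, as did Rtp4, at 56.8 CPM against 78.7, 69.1 and 73.4 CPM. This order of the libraries is description only, as the share of all genes with the control lowest is not given. The abundant genes were Ifitm3 (2366 CPM against 2440, 2849 and 3775 CPM), Irf1 (927 CPM against 800, 654 and 787 CPM) and Iigp1 (437 CPM against 501, 367 and 404 CPM). Irf1 thus was lower in each OSA library, and Iigp1 overlapped. Both chemokines were lower: Cxcl9 had 76.004 CPM against 49.4, 61.4 and 59.0 CPM, and Cxcl10 had 24.1 CPM against 12.3, 10.4 and 20.3 CPM. Irf9, a gene of the signalling list, differed little, at 102 CPM against 112, 104 and 100.2 CPM.

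Mural-like cells, which wrap the vessels as pericytes or smooth muscle, resembled the endothelial-like cells in direction. Of 40 genes tested, 33 were higher (median 0.31, against 51.2% higher and 0.01 over all genes). Neither edgeR nor DESeq2 called any, an unadjusted p under 0.05 was found for 6, and 0.0564% of all genes passed. Ifit3 had 12.3 CPM against 20.1, 21.5 and 21.2 CPM (0.77 ± 0.23, adjusted p = 0.683, edgeR). Irf7 had 24.3 CPM against 29.4, 40.4 and 44.5 CPM, and Ifitm3 had 1524 CPM against 1605, 2060 and 2350 CPM. Irf1 again was lower, at 723 CPM against 577, 536 and 535 CPM, and Iigp1 overlapped at 168 CPM against 192, 159.9 and 134 CPM. In mural-like cells with 0 endothelial UMIs 14 genes of the set could be tested, of which 11 were higher (median 0.61) and 0 passed, where 0.055% of all genes did. The other 3 were Ifi35, Irf1 and Stat2.

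The difference between classes was itself tested, by an interaction term in a fit that held both classes. Between macrophage-like and endothelial-like cells 8 of the 42 genes differed in their OSA difference, all with the lower value in macrophage-like cells, and 0.679% of all genes did. They were Isg15 (-2.06 ± 0.29, adjusted p = 0.0092, edgeR), Oas2 (-2.19 ± 0.34), Rtp4 (-1.92 ± 0.31), Gbp7 (-1.77 ± 0.29), Rsad2 (-1.80 ± 0.34), Stat2 (-1.25 ± 0.25), Irgm1 (-1.84 ± 0.37) and Ifit1 (-2.62 ± 0.58, adjusted p = 0.046). Irf1, which was lower in both classes, did not pass but lay close to the threshold (-1.23 ± 0.27). Against fibroblast-like cells only Oas2 differed (-2.41 ± 0.41, adjusted p = 0.0171), where 0.444% of all genes did. Between endothelial-like and fibroblast-like cells 0 genes of the set and 0% of 17849 genes passed by edgeR. An unadjusted p under 0.05 was found for 22 of the set, and the share of all genes at that threshold is not given. Classes of 1 library share that library's preparation, so these differences are within the same 4 libraries.

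Fibroblast-like cells had 30 of 41 genes lower in OSA, a median of -0.30, against 46.9% lower and 0.02 over all genes. The makeup of this class also differed. A cluster with Saa3 and Serpina3n among its leading genes held 0.338% of its control cells and 4.10%, 1.03% and 21.7% of its OSA cells. The largest cluster held 54.7% against 61.0%, 53.6% and 35.8%. The part of this makeup in the lower values was not tested. By edgeR 0 of the set and 0% of 16784 genes passed, and 6 of the set had an unadjusted p under 0.05. DESeq2 called Cxcl9 and Cxcl10, where it called 0.214% of all genes. Cxcl10 had 170 CPM in the control library and 87.8, 55.4 and 69.8 CPM in OSA (-1.26 ± 0.25, adjusted p = 0.208, edgeR). Cxcl9 had 52.6 CPM against 26.9, 19.0 and 20.4 CPM (-1.25 ± 0.25, adjusted p = 0.204). For both chemokines every OSA library lay well below the control.

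In the largest fibroblast-like cluster taken alone Cxcl9 passed, at 57.4 CPM against 29.0, 22.4 and 22.9 CPM (-1.21 ± 0.24, adjusted p = 0.0223, edgeR), where 0.0662% of all genes passed. Among fibroblast-like cells with 0 endothelial UMIs Cxcl10 passed, at 220 CPM against 86.6, 87.0 and 78.5 CPM (-1.39 ± 0.29, adjusted p = 0.0011), where 0.429% of all genes did. Irf1 had 702 CPM against 448, 375 and 289 CPM (-0.92 ± 0.28, adjusted p = 0.828), and Iigp1 had 58.5 CPM against 48.2, 26.5 and 21.6 CPM. Irgm1 had 26.4 CPM against 18.2, 11.6 and 9.07 CPM. Without OSA replicate 1 all of Cxcl10, Cxcl9, Iigp1 and Irgm1 passed, where 1.31% of all genes did. The most abundant gene, Ifitm3, overlapped at 1806 CPM against 1898, 1652 and 2529 CPM, as did Ifi27l2a at 624 CPM against 504, 559 and 699 CPM.

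Tenocyte-like cells, the cells of tendon, showed 1 gene that fell, Cxcl10. It had 77.8 CPM in the control library and 19.0, 12.6 and 23.7 CPM in OSA (-2.10 ± 0.30, adjusted p = 0.00531, edgeR), where 0.0158% of all genes passed, all of them lower. The UMIs sat in few cells: 23 of 236 control cells, and 22 of 403, 19 of 524 and 27 of 476 OSA cells. Of 134 control UMIs, 55 came from 1 cell. Without the cell of most UMIs in each library the difference was -1.84 ± 0.35 and no longer passed (adjusted p = 0.235). The call was also lost without OSA replicate 3, where 0.00791% of all genes passed.

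Of the other 34 genes tested in tenocyte-like cells 21 (61.8%) were lower, with a median of -0.07, against 47.7% lower and 0.02 over all genes. Irf1 had 399.6 CPM against 284, 242 and 238 CPM. Ifitm3 had 1067 CPM against 982, 941 and 1125 CPM, and Ifi27l2a 150.4 CPM against 137, 157 and 179 CPM. Ifit3 was higher in every OSA library, at 6.39 CPM against 23.7, 10.3 and 16.02 CPM (1.37 ± 0.54).

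T and NK-like cells differed in direction: Cxcl10 rose. It had 14.9 CPM in the control library and 92.5, 72.8 and 74.4 CPM in OSA (2.40 ± 0.51, adjusted p = 0.00467, edgeR), where 1.22% of all genes passed and 0.745% rose. The value rests on few molecules: 8 UMIs in 3 of 131 control cells, and 45, 36 and 47 UMIs in 10 of 106, 6 of 87 and 18 of 184 OSA cells. In OSA replicate 1, 36 of the 45 UMIs came from 1 cell. Without the cell of most UMIs in each library the difference was 2.31 ± 0.72 and did not pass (adjusted p = 0.111), and DESeq2 called 0 of the set.

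Markers of other types moved in this class too. The macrophage list summed to 49.9 CPM in the control library and to 429, 68.5 and 384 CPM in OSA, and the fibroblast list to 397 CPM against 497, 2605 and 1018 CPM. The erythroid list summed to 258 CPM against 8109, 518 and 464 CPM. Most OSA Cxcl10 UMIs lay in 1 cluster (i10) led by Gata3, Il1rl1, Areg and Csf2. That cluster had 39, 20 and 34 UMIs in OSA and 0 in the control, where it held 22 cells. Of the 14 T and NK markers it held 3 (Trbc2, Nkg7 and Il7r). It made up 16.8% of the class in the control library and 31.1%, 39.1% and 19.6% in OSA. Cluster i5 had 1 Cxcl10 UMI in the control against 1, 0 and 3 in OSA, and i9 had 0 against 1, 0 and 5. Cluster i17 had 3 UMIs against 3, 16 and 2, from 3 control cells and 21, 24 and 53 OSA cells. Cluster i23 had 4 against 1, 0 and 3, from 2 control cells and 13, 7 and 55 OSA cells. Unscaled, i17 had 160 CPM against 28.0, 114 and 11.8 CPM, and i23 had 336 CPM against 19.2, 0 and 15.1 CPM. Cxcl10 was thus lower in OSA in both of these clusters, although their control values rest on very few cells. The part of other cell types in the rise was not tested.

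Of the other 25 genes tested in T and NK-like cells 12 were higher and 13 lower, with a median of -0.01 (0.04 over all genes). Ifitm3 had 518 CPM against 582, 606 and 573 CPM, Psmb8 had 289.9 CPM against 302, 259 and 332 CPM, and Ifi27l2a 253 CPM against 115, 137 and 309 CPM. Of 8 signal transducers 1 fell: Irf8, a transcription factor of myeloid and B cells, at 392.1 CPM against 115, 182 and 114 CPM (-1.52 ± 0.27, adjusted p = 0.000407, edgeR). Ifng, which encodes interferon gamma and is made by T and NK cells, had 53.9 CPM against 22.6, 12.1 and 39.6 CPM (-1.08 ± 0.50, adjusted p = 0.504). It was the only ligand of 10 that could be tested in any class, and the other 9 were at 0 in this class. The class was made up differently in the libraries: 1 cluster (i9) held 29.0% of its control cells and 11.3%, 12.6% and 7.07% of its OSA cells, and another (i5) held 50.4% against 25.5%, 12.6% and 14.7%. The part of this makeup in the Cxcl10, Irf8 and Ifng values was not tested.

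Lymphatic endothelial-like cells had 23 of 29 genes lower (median -0.57, against 47.6% lower and 0.02 over all genes), with 0 passing by edgeR or DESeq2, 8 at an unadjusted p under 0.05 and 0.132% of all genes passing. Psmb9, an immunoproteasome subunit, had 57.8 CPM against 34.3, 19.96 and 25.1 CPM (-1.12 ± 0.36, adjusted p = 0.434, edgeR). Stat2 had 114 CPM against 78.7, 57.4 and 48.1 CPM (-0.91 ± 0.30, adjusted p = 0.434). Without OSA replicate 1, Psmb9, Stat2, Irf1 and Iigp1 passed, where 1.37% of all genes did. The MHC class I list was lower in 11 of 13 genes (median -0.40), and Ifitm3 went the other way, at 3453 CPM against 3526, 4038 and 5421 CPM. Ifi27l2a likewise had 619 CPM against 650.1, 1110.3 and 812 CPM, and Irf1 had 317 CPM against 269.5, 162 and 142 CPM.

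Neutrophil-like cells had 19 of 28 genes lower (median -0.41), against 41.9% lower and a median of 0.21 over all genes. The class lay in different clusters, with 40 of 42 control cells (95.2%) in the cluster led by Csf3r and Il1b against 59.2%, 21.0% and 38.1% of OSA cells. By edgeR 0 of the set and 0% of 5758 genes passed, and DESeq2 called 0. The single gene with an unadjusted p under 0.05 was Ifi27l2a, at 1438 CPM against 542, 518 and 435 CPM (-1.53 ± 0.47, adjusted p = 0.794, edgeR). In the Csf3r-led cluster taken alone 11 of 17 genes were lower, and Ifi27l2a passed, at 1863 CPM against 902, 790.3 and 823 CPM (-1.15 ± 0.28, adjusted p = 0.0496), where 0.521% of all genes did. Ifitm3 had 1261 CPM against 1457, 2238 and 1577 CPM, and Isg15 had 436 CPM against 254, 103 and 285 CPM. Cxcl10 had 0 control UMIs, and the limit that a count of 0 allows, 40.5 CPM, lies above the OSA level of 26.6 CPM.

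Schwann-like cells, which ensheath nerve fibres, had 19 of 34 genes higher (median 0.05, 0.02 over all genes), with 0 passing by edgeR or DESeq2, 4 at an unadjusted p under 0.05 and 0.165% of all genes passing. Cxcl10 had 86.5 CPM against 56.0, 57.7 and 61.5 CPM (-0.57 ± 0.23, adjusted p = 0.941, edgeR). In 1 Schwann-like cluster taken alone it passed, at 89.9 CPM against 39.4, 35.9 and 41.6 CPM (-1.20 ± 0.25, adjusted p = 0.0013), where 0.271% of all genes did. The other Schwann-like cluster was tested too, and its values are not given. Ifitm3, the abundant effector, had 515 CPM against 611, 705 and 849 CPM. Irf1 had 727 CPM against 551, 506 and 473 CPM, and Ifi27l2a had 87.3 CPM against 109, 91.5 and 192 CPM.

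Satellite-like cells had 16 of 30 genes higher (median 0.06, 0.02 over all genes), with 0 passing by edgeR or DESeq2, 3 at an unadjusted p under 0.05 and 0.0907% of all genes passing. Irf1 had 428 CPM against 312, 185 and 187 CPM (-0.91 ± 0.26, adjusted p = 0.287, edgeR). Cxcl10, for which this class held the highest level of the 10, had 139 CPM against 119, 258 and 115 CPM, so its groups overlapped. Ifitm3, the most abundant gene here, overlapped too, at 848 CPM against 830.2, 861 and 974 CPM. Iigp1 had 33.9 CPM against 13.0, 21.3 and 15.9 CPM, and 14 of the 15 immediate early genes were lower in this class.

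The separate lists of ligands, receptors, signal transducers, upstream sensors, feedback inhibitors and MHC class I genes gave no passing gene in the 10 classes other than Nlrc5 in macrophage-like and Irf8 in T and NK-like cells. Signal transducers were on the lower side in 8 of 8 genes in satellite-like cells (median -0.26) and in 6 of 8 in endothelial-like, fibroblast-like, mural-like, Schwann-like and lymphatic endothelial-like cells. MHC class I genes were higher in 10 of 13 in mural-like cells (median 0.24) and in 9 of 13 in endothelial-like cells (median 0.12). Stat3, which also carries interleukin signals, was the most abundant transducer in all 10 classes.

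Irf1 in the control library was above every OSA library in 9 of the 10 classes, and T and NK-like cells were the exception, at 204 CPM against 216, 166 and 142 CPM. The 9 comparisons share the same control library and are not independent. Cxcl10 was higher in the control library than in every OSA library in macrophage-like, fibroblast-like, endothelial-like, tenocyte-like and Schwann-like cells, and in lymphatic endothelial-like cells, where it was too low to test. For both genes this order is description only, as the share of all genes with the control highest is not given. Over all kept cells summed, 24 of 42 genes were higher and the median was 0.12 (0.01 over all genes). By edgeR and DESeq2 0 of the 42 passed, 2 had an unadjusted p under 0.05, and 0% of 20888 genes passed. Cxcl10 summed to 78.2 CPM against 39.6, 39.6 and 43.6 CPM (-0.93 ± 0.17, adjusted p = 0.99, edgeR), and Irf1 to 723 CPM against 547, 449.5 and 381 CPM. Such sums also move with the share of each class.

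Cells were then read singly, on 16 genes of the set, after each cell was thinned to 2000 UMIs and shallower cells were left out. In endothelial-like cells the share with at least 2 of the 16 genes was 23.01% in the control library (885 of 3846 cells; exact binomial 95% interval 21.7% to 24.4%) and 30.1%, 28.8% and 26.0% in OSA. In macrophage-like cells it was 23.2% (44 of 190; 17.4% to 29.8%) against 8.33%, 7.16% and 3.89%. In mural-like cells it was 9.54% against 12.8%, 13.97% and 13.6%, and in fibroblast-like cells 7.199% against 5.69%, 3.71% and 5.10%. Every OSA library was above the control in the endothelial-like and mural-like classes and below it in the other two.

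Satellite-like cells had among the lowest shares, at 1.52% in the control library and 2.27%, 3.03% and 1.34% in OSA. Intervals cover counting error only, and cells of 1 library are not replicates. The exact two-sided permutation test over 1 control and 3 OSA libraries cannot give a p under 0.25, which each of those 4 classes reached (0.5 after adjustment over 10 classes). The number of macrophage-like cells left out as too shallow was 15 in the control library and 38, 62 and 260 in OSA.

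In the same thinned endothelial-like cells the genes of the set were found together. Ifit3 was counted in 18.3%, 26.4%, 26.8% and 16.3% of cells with Ifit1 in the control library and OSA replicates 1, 2 and 3, and in 4.19%, 6.22%, 6.21% and 6.12% of cells without it. Cmpk2, the neighbour of Rsad2 in the genome, was counted in 11.7%, 12.3%, 12.5% and 9.75% of cells with Rsad2 and in 5.37%, 6.03%, 5.58% and 4.25% of cells without it. In every library the gene was more frequent in the cells that held its partner.

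**Figure D4:**
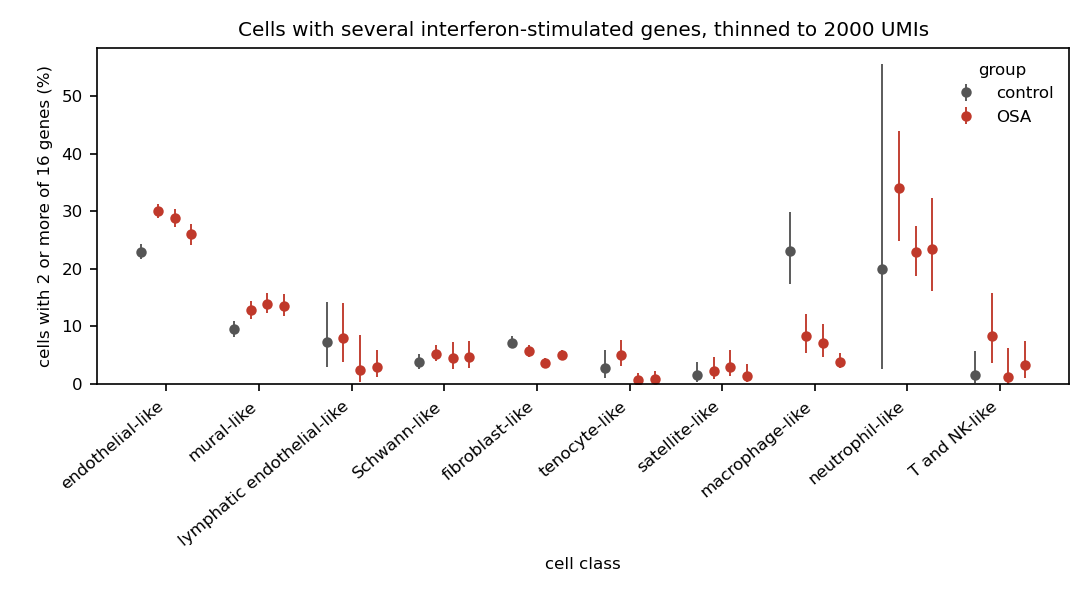
Percent of cells with at least 2 of 16 interferon-stimulated genes after thinning to 2000 UMIs, per class and library, with exact binomial 95% intervals that cover counting error only. Macrophage-like cells drop from 23.2% in the control library to between 3.89% and 8.33% in OSA, and endothelial-like cells go from 23.01% to between 26.0% and 30.1%.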

How the data were processed

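The deposited matrices hold whole UMI counts per gene and barcode, made by the authors with Cell Ranger (version 9.0.1 per the file headers) on mouse builds GRCm39 and mm39 per the submitters' processing notes. Further filters are not given in the sources used here. Control replicates 1 and 3 entered only as barcode lists. A barcode needed 300 genes, 500 UMIs and at most 20% mitochondrial UMIs, and Scrublet doublets (358 to 574 per library) were left out of tests. Cells were clustered in scanpy 1.11.5 (2000 variable genes without the 42, 30 components, Leiden resolution 1), immune cells a further time. Clusters were named from 21 marker lists with at least 3 markers held, and erythroid markers were not counted against a name, a choice made after seeing the data. Counts were summed per class and library, filtered with filterByExpr, scaled by TMM and fitted with edgeR 4.0.16 (R 4.3.3, 2 residual degrees of freedom). The edgeR test was checked on counts simulated from macrophage-like and endothelial-like sums, with the control varying as the OSA libraries did. That check therefore cannot test the assumption made for the lone control. The genes and lists were chosen with earlier results of these data known. Named genes were those past the threshold, the 3 most abundant of the set in each class, the most abundant and the passing genes of each pathway list, and others chosen after their values were seen. Promoters came from the RefSeq table of build GRCm38.p6. Values of 1 gene of the signalling list are not reported here.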

Additional observations from a re-analysis of the deposited data

Results flagged for a closer look

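The OSA difference of 8 genes was lower in macrophage-like than in endothelial-like cells by the interaction test. The difference of the log2 differences was -2.06 for Isg15, -2.19 for Oas2, -1.92 for Rtp4, -1.77 for Gbp7, -1.80 for Rsad2, -1.25 for Stat2, -1.84 for Irgm1 and -2.62 for Ifit1. Oas2 was also lower in macrophage-like than in fibroblast-like cells, by -2.41. In macrophage-like cells Ifit1 stood at 7.39 CPM in the control library against 2.67, 2.30 and 1.40 CPM in OSA, while in endothelial-like cells it stood at 17.1 CPM against 35.6, 30.9 and 23.7 CPM. No group held more than 3 libraries, so no library was tested as an outlier.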

How the results depend on the processing

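No paired analysis was possible because the matrix of only 1 control library was read. Leaving out the control was impossible for the same reason, and with 2 OSA libraries left the lone control is assumed to vary like them. The genes that passed kept their direction under every alternative that gave them a value. Of the 345 tested differences of the set over the 10 classes, 91 changed sign under at least 1 of 11 changes of normalization, test, filter, depth, clustering, doublet handling or OSA replicates. In cells without endothelial UMIs 12 changed sign, none of them passing: Cxcl10 (0.52), Ifi27l2a (0.037), Ifi35 (1.77) and Psmb8 (0.068) in macrophage-like cells, Ifi35 (0.046), Ifit3 (-1.12), Igtp (0.14), Irf7 (-0.48) and Isg15 (0.023) in fibroblast-like cells, and Cxcl10 (1.51), Ifi35 (-0.074) and Parp9 (0.32) in mural-like cells. The cause was not tested for any change below unless the alternative itself removes cells or genes. In macrophage-like cells the main count of 3 became 5 with DESeq2, 14 with no filter, 5 with the 42 genes kept for clustering, 7 with thinned sums, 1 in cells without endothelial UMIs and 0 in the Folr2-led cluster alone, and 0 to 14 without 1 OSA replicate. In fibroblast-like cells the count of 0 became 2 with DESeq2, 3 with no filter, 1 in cells without endothelial UMIs, 1 in the largest cluster and 0 to 4 without 1 replicate. The count in T and NK-like cells was 0 with DESeq2, 0 with at least 10 counts per library and 1 to 2 without 1 replicate. Endothelial-like cells gave 1 with no filter and 0 to 2 without 1 replicate, satellite-like cells 1 with no filter and 0 to 1, neutrophil-like cells 1 in a single cluster and 0 to 1, lymphatic endothelial-like cells 0 to 4, tenocyte-like cells 0 to 2, and Schwann-like cells 1 in a single cluster. The difference between macrophage-like and endothelial-like cells held for 0 genes with at least 10 counts and for 5 to 18 without 1 replicate, where 0.296% to 4.16% of all genes did. Against fibroblast-like cells these counts were 0 and 0 to 14, where 0.167% to 6.19% did, and between endothelial-like and fibroblast-like cells 0 to 1. The OSA minus control difference in the per-cell share, in percentage points with at least 1 gene, at least 3 genes, 1000 UMIs and no thinning, was -19.6, -5.52, -6.21 and -21.01 in macrophage-like cells (main -16.7), -7.36, -0.627, -1.14 and -6.31 in fibroblast-like cells (main -2.37), and 7.50, 1.19, 2.34 and 6.79 in mural-like cells (main 3.92). In endothelial-like cells it stayed between 4.37 and 6.41 without 1 replicate. Over 12 settings the share of genes of the set on the lower side was 75.6% to 89.7% in macrophage-like, 70.0% to 82.5% in fibroblast-like, 70.7% to 85.7% in lymphatic endothelial-like, 19.5% to 25% in endothelial-like and 17.5% to 25% in mural-like cells. Depth limits the neutrophil-like class most, with 74138 control UMIs.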

Other observations

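Classes too small to test gave values from the 4 libraries with counting error only. In dendritic-like cells (13 control cells, and 23, 41 and 95 OSA cells) Cxcl10 stood at 567 CPM in the control library, from 56 UMIs, with an exact Poisson interval of 428 to 737 CPM. In OSA it stood at 35.4, 65.1 and 45.7 CPM, from 10, 28 and 34 UMIs. Irf1 stood at 466 CPM against 255, 153 and 129 CPM in the same cells, while Isg15 stood at 30.4 CPM, from 3 UMIs, against 53.1, 58.1 and 69.9 CPM.

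In monocyte-like cells (17 control cells, and 45, 36 and 101 OSA cells) Irf1 stood at 96.0 CPM against 85.9, 119 and 77.9 CPM, and Isg15 at 139 CPM against 108, 54.1 and 42.5 CPM. An unnamed cluster of 15 cells, led by Siglech, Klk1 and Ccr9 and found in the OSA libraries alone (2, 5 and 8 cells, and 0 in the control), held Bst2 at 2120 CPM. An unnamed cluster of 4568 cells with endothelial markers and a median of 1422 UMIs held Isg15 at 144 CPM and Iigp1 at 286 CPM over all 4 libraries, which entered no class sum.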
